A study of Mus musculus with 12 samples.

Results

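The nuclear-encoded subunits of the mitochondrial respiratory chain and ATP synthase were followed in B16F10 cells, a mouse melanoma line, with and without depletion of OSGEP. Members were taken by gene symbol, from names that start with Ndufa, Ndufb, Ndufc, Ndufs, Ndufv, Uqcr, Cox4i, Cox5, Cox6, Cox7, Cox8 or Atp5, together with Sdha, Sdhb, Sdhc, Sdhd and Cyc1. Only protein-coding genes were kept, and the 8 Ndufaf genes, which encode assembly factors, were left out with 13 pseudogenes or noncoding genes. This gave 87 of the 55487 genes in the count tables, with 38 in complex I, 4 in complex II, 9 in complex III, 18 in complex IV and 18 in complex V. They lie on 19 chromosomes. A pair of gene IDs carried the symbol Atp5o, and ENSMUSG00000116933, which overlaps the other, had no count in any of the 12 libraries. The rule also took in Atp5s, a coupling factor with a leucine-rich repeat fold that is no stable subunit, and Cox7a2l, which acts in the assembly of supercomplexes.

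Cells carried a control short hairpin RNA (shCtr, labelled as wild type) or hairpin number 2 against Osgep (shOSGEP, labelled as a knockdown). Osgep encodes the catalytic subunit of KEOPS, an enzyme complex that adds the modification t6A next to the anticodon of tRNAs for ANN codons, those with A as their first base. Ribosome-protected fragments (RPFs, or footprints) and total RNA were sequenced from 3 replicates of each genotype, which gave 4 groups of 3 libraries. The study's methods state that every experiment used 3 independent transductions, while the labels of these libraries give only replicate numbers. The p-values measure the spread between these samples. The knockdown rests on 1 hairpin, and the label of the control as wild type does not remove the fact that those cells also carry a hairpin.

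The respiratory chain moves electrons from NADH (complex I) and succinate (complex II) through ubiquinol and cytochrome c (complex III) to oxygen (complex IV), and complex V turns the proton gradient into ATP. A small set of core subunits is made inside the mitochondrion from mitochondrial DNA. All the genes described here are transcribed in the nucleus and translated on cytosolic ribosomes, and their products are imported. In melanoma these genes are known as targets of PGC-1alpha, a coactivator that MITF, the regulator of pigment cells, can induce.

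Total RNA libraries held 46.7 to 81.1 M counts (M for mega). RPF libraries held 12.9 to 40.3 M, of which 4.42 to 17.0 M fell on protein-coding genes and 27.7% to 67.7% on ribosomal RNA. The shOSGEP replicate 1 libraries stood apart. A chi-square comparison of counts over genes gave 508 and 747 per degree of freedom for the pairs with this replicate in total RNA and 851 and 893 for those in RPF, whereas every other pair within a group lay between 81.1 and 244. Osgep RNA was at 4.25%, 44.03% and 44.4% of the shCtr level in replicates 1, 2 and 3, and Osgep footprints were at 63.1%, 52.3% and 50.1%, so replicate 1 had the lowest share left in total RNA and the highest in footprints. All 7 melanocyte markers were detected, with a summed total RNA level of 9665 to 16837 counts per M (CPM) in shCtr and 2655 to 12789 CPM in shOSGEP, lowest in replicate 1. The 11 markers of leukocytes, endothelium, fibroblasts and keratinocytes summed to 0.738 to 1.26 CPM in shCtr and 0.775 to 15.7 CPM in shOSGEP, and 7 of them did not exceed 3 counts in any total RNA library. The highest of these sums came from Col1a1, a collagen gene that reached 15.3 CPM in shOSGEP replicate 1. The part of these markers in the results below was not tested, and in bulk samples fewer cells of a kind and less RNA per cell cannot be told apart.

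Coding sequences are shown first for the subunits with the highest and the lowest share of ANN codons among the members of at most 300 nt that were tested in both assays, as these codons are the ones read by t6A tRNAs. Both are read from the GRCm38 genome through the GENCODE annotation, 5′ to 3′, with each ANN codon in capitals. Atp5e encodes the epsilon subunit of complex V (chromosome 2, 174461072 to 174464105, minus strand), and 20 of its 52 sense codons start with A (38.5%). Uqcrh encodes the hinge subunit of complex III (chromosome 4, 116066965 to 116075071, minus strand), and 17 of its 89 sense codons do (19.1%).
Atp5e: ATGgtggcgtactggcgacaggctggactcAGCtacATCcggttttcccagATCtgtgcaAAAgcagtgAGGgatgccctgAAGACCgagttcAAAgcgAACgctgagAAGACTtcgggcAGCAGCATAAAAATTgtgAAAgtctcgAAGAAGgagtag
Uqcrh: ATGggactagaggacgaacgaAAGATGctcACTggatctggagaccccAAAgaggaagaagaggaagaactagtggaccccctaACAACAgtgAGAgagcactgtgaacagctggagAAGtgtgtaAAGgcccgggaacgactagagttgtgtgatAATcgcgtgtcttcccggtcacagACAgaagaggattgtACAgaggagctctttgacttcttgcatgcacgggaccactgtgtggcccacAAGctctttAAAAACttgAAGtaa
Over the 78 members tested in both assays the median ANN share was 26.95%, against 27.03% over the 11257 protein-coding genes with a value.

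A second shared feature is the start of the coding sequence. The letters ATGGCGGC are the core of an initiation element known from messages with very short leaders, many of them for mitochondrial proteins. They opened the coding sequence of 14 of 78 members (17.9%) and of 456 of 11257 protein-coding genes tested (4.05%), read on the coding strand at the start codon only. The median annotated 5′ leader was 108 nt in members and 179 nt in all genes, so most leaders were not short in this annotation. The first 30 coding bases of 5 such members with high total RNA levels follow, with the element in capitals. They are on chromosome 9 (Uqcrc1, 108936633 to 108949623, plus strand), chromosome 15 (Cyc1, 76343523 to 76346260, plus strand), chromosome 4 (Sdhb, 140961203 to 140979193, plus strand), chromosome 15 (Ndufa6, 82350140 to 82354322, minus strand) and chromosome 6 (Ndufa9, 126821721 to 126849136, minus strand) of GRCm38.
Uqcrc1: ATGGCGGCgtccgcagtctgccgagcggcc
Cyc1: ATGGCGGCggcggcggcttcgcttcgccgg
Sdhb: ATGGCGGCgacggtcggggtctccttgaag
Ndufa6: ATGGCGGCcgcggccaccggcctgcgccaa
Ndufa9: ATGGCGGCcgccgtccgctttcgggttgtt
A match is a description of these letters and not evidence that the element acts in these cells.

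The members also had short coding sequences. Their median coding length was 433.5 nt, against 1407 nt over the 11311 protein-coding genes tested in both assays, and 19 of 78 members (24.4%) had at most 300 nt, compared with 2.13% of those genes.

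Levels in control cells were compared per length, as counts per kilobase of exon (total RNA) or of coding sequence (RPF), scaled to M over protein-coding genes. The 78 members tested in both assays had a median level of 217 in total RNA and 194 in RPF, against 28.3 and 29.3 over all protein-coding genes tested. By complex, the median total RNA level was 143 for complex I, 202 for complex II, 320 for complex III, 569 for complex IV and 422 for complex V. The order was the same in footprints, at 141, 162, 265, 357 and 312. Complexes IV and V thus had the highest medians, although complex V ranged from 7.90 to 1544 in total RNA. Beside the genes named by rule, Atp5j2, Atp5s, Cox7b2, Ndufa6, Ndufv3, Uqcrh and Uqcrq were chosen for mention after their values were seen.

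In complex V the catalytic beta subunit Atp5b led all members in total RNA, with a level of 1544 ± 52.4 (SD, n = 3), followed within the complex by the c-ring gene Atp5g3 at 814 ± 42.3. In footprints Atp5j2, the f subunit of the membrane part, led with 1196 ± 658, a wide spread. Atp5s was lowest of the 78 in both assays, at 7.90 ± 1.62 and 6.28 ± 1.57 (SD, n = 3). In complex IV the highest total RNA levels were those of Cox5b and Cox8a, at 763 ± 62.6 and 732 ± 135, a difference smaller than the spread between replicates. In complex III these were the small subunits Uqcr11 (605 ± 77.1) and Uqcr10 (395 ± 54.6). In complex II the membrane anchor Sdhd (268 ± 11) and the iron-sulfur subunit Sdhb (255 ± 21.2) did not differ beyond their spread, and the flavoprotein Sdha stood at 148 ± 12.2. In complex I Ndufa4, which is now also assigned to complex IV, led with 961 ± 63.7, followed by Ndufb8 at 391 ± 19.8.

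The core subunits listed next carry redox centres or hold the fold. They were at or below the total RNA median of their complex, 143 for complex I and 320 for complex III. Uqcrfs1 was the lowest of complex III. In complex I the total RNA level was 113 ± 2.46 for Ndufs1, 114 ± 8.99 for Ndufs7 and 89.2 ± 16.2 for the NADH-binding flavoprotein Ndufv1 (SD, n = 3). In complex III it was 320 ± 32.0 for the core protein Uqcrc1, 320 ± 21.7 for the cytochrome Cyc1 and 138 ± 15.98 for the Rieske protein Uqcrfs1. The levels depend on the annotated transcript. For Ndufb2 and Atp5g1 that transcript had exons of 4371 nt and 4715 nt for coding sequences of 318 nt and 411 nt, which places their total RNA levels, 22.0 and 69.8, low among the members.

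**Figure D1:**
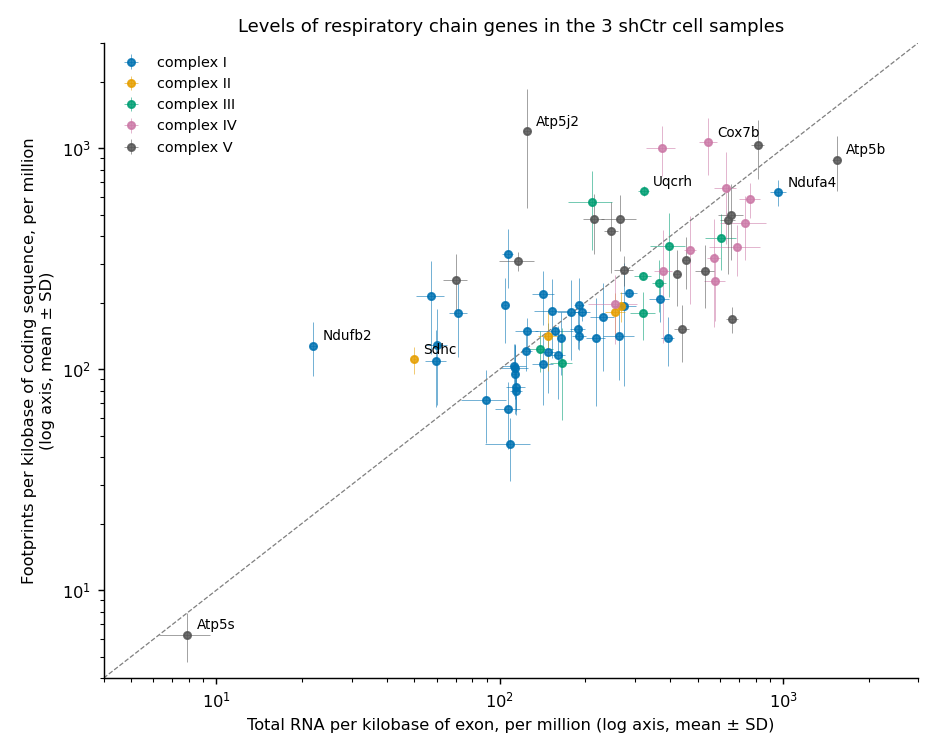
Level per length of the 78 members tested in both assays, in shCtr total RNA (horizontal, log axis, counts per kilobase of exon per M) and shCtr footprints (vertical, log axis, counts per kilobase of coding sequence per M). Points are means and bars SD of 3 libraries, colours mark complexes, and the dashed line marks equal values. Many members lie near the line. Atp5j2 is far above it at 125 in total RNA and 1196 in footprints, and others, such as Ndufb2 at 22.0 and 128, are also above it.

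Several subunits have tissue-specific isoforms, and B16F10 cells expressed the ubiquitous ones. Cox4i1, the common form of a complex IV subunit, was at 627 ± 56.6 in shCtr total RNA (SD, n = 3). By contrast Cox4i2, known from lung and low oxygen, had at most 1 count in any total RNA library. Cox6a1 was at 687 ± 138, while Cox6a2, the muscle form, was at 0.275 ± 0.325. Cox6b2, Cox8b and Cox8c had no total RNA count in any library and at most 2, 0 and 1 RPF counts, while Cox7b2 had no count in either assay. Cox7a1, another muscle form, had at most 8 total RNA counts. A count of 0 allows up to 0.0370 to 0.0642 CPM in a total RNA library (3 counts), which is a limit for counting error only. Ndufa4l2, the paralogue of Ndufa4 known as a target of hypoxia signalling, was at 1.08 ± 0.261 per length, far below Ndufa4.

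The next comparison was shOSGEP against shCtr. After a filter on low counts, 80 of 87 members were tested in total RNA and 78 in RPF and for translational efficiency (TE, footprints over total RNA). The 7 members not tested in total RNA were Cox4i2, Cox6b2, Cox7a1, Cox7b2, Cox8b, Cox8c and the second Atp5o ID, and RPF lost Ndufa4l2 and Cox6a2 as well. With edgeR's quasi-likelihood test, 0 members passed an adjusted p of 0.05 in total RNA, where 0 of 14516 genes did (0%). In RPF 0 members passed, with 0 of 13529 genes (0%), and for TE 0 members passed, with 0 of 12560 genes (0%). At an unadjusted p under 0.05 stood 1 of 80 members in total RNA (1.78% of all genes), 0 of 78 in RPF (1.03% of all genes) and 0 of 78 for TE (0.135% of all genes). With the replicate number as a block, which the deviations of same-numbered libraries call for, edgeR called 1 gene in total RNA and none in RPF or for TE, and 0 members in each. DESeq2 also called 0 members in each fit and had 1, 0 and 0 at an unadjusted p under 0.05. In the edgeR fit without a block the lowest adjusted p among members was 0.975 in total RNA, 0.9998 in RPF and 0.99999 for TE. With the block in edgeR it was 0.721, 0.817 and 0.9998, and with DESeq2 0.483, 0.9999 and 0.9999.

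The groups did not overlap for 3 of 80 members in total RNA (7.08% of all genes), for 0 of 78 in RPF (5.07% of all genes) and for 0 of 78 for TE (4.34% of all genes). The 3 were Ndufa12, Ndufa6 and Cox6a2, each higher in shOSGEP. Same-numbered libraries of both genotypes were compared as replicate pairs, since their deviations from the group means ran together. In total RNA 20 of 80 members (25%) differed in the same direction in all 3 pairs, against 33.9% of all genes. In RPF 11 of 78 (14.1%) did, against 30.8%, and for TE 4 of 78 (5.13%), against 22.8%. Each of these shares is below that of all genes, a difference that was not tested.

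In total RNA the members' medians lay near 0. The median log2 change within pairs 1, 2 and 3 was 0.012, −0.0042 and −0.0032, and 41 members were higher in pair 1, 42 lower in pair 2 and 41 lower in pair 3, of 80. The fitted median was 0.0071 (46 higher, 34 lower), against 0.021 over all genes. By complex the fitted medians lay between −0.022 (complex II) and 0.020 (complex I). The respiratory chain took 1.04%, 1.03% and 0.937% of protein-coding counts in shCtr replicates 1, 2 and 3 and 1.04%, 1.03% and 0.941% in shOSGEP, so the genotypes of a pair differed by less than the replicates did.

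In footprints most members had differences of one sign within a pair, but the sign was not the same in the 3 pairs. The median log2 change was 0.52 in pair 1, −0.21 in pair 2 and −0.32 in pair 3, whereas the lowest of the medians over all genes was −0.0048. In pair 1 68 of 78 members were higher in shOSGEP (49.3% of all genes), in pair 2 59 were lower (50.5% of all genes) and in pair 3 68 were lower (49.8% of all genes). The fitted median over the 3 pairs, 0.085 (51 higher, 27 lower), against 0.045 over all genes, therefore averages differences of both signs. With the replicate block, which takes out differences between replicate numbers, it was −0.028. Without shOSGEP replicate 1 it was −0.40, without both replicate 1 libraries −0.25, and without shCtr replicate 3 −0.13. Without shOSGEP replicate 3 it was 0.40. No direction of the footprint change can be given from these libraries.

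The sign pattern held in every complex. For complex I the RPF medians in pairs 1, 2 and 3 were 0.65, −0.23 and −0.27, for complex II 0.41, −0.26 and −0.43, for complex III 0.040, −0.21 and −0.35, for complex IV 0.50, −0.27 and −0.43, and for complex V 0.20, −0.12 and −0.35. The ratio of footprints to RNA had the same signs, with TE medians of 0.43, −0.18 and −0.31 over all members. In pair 1 74 of 78 members had a higher TE in shOSGEP (50.9% of all genes), and in pairs 2 and 3 66 and 67 had a lower one (52.2% and 52.1% of all genes). Members that open with ATGGCGGC had RPF medians of 0.37, −0.12 and −0.32, and the other 64 members had 0.53, −0.24 and −0.32.

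**Figure D2:**
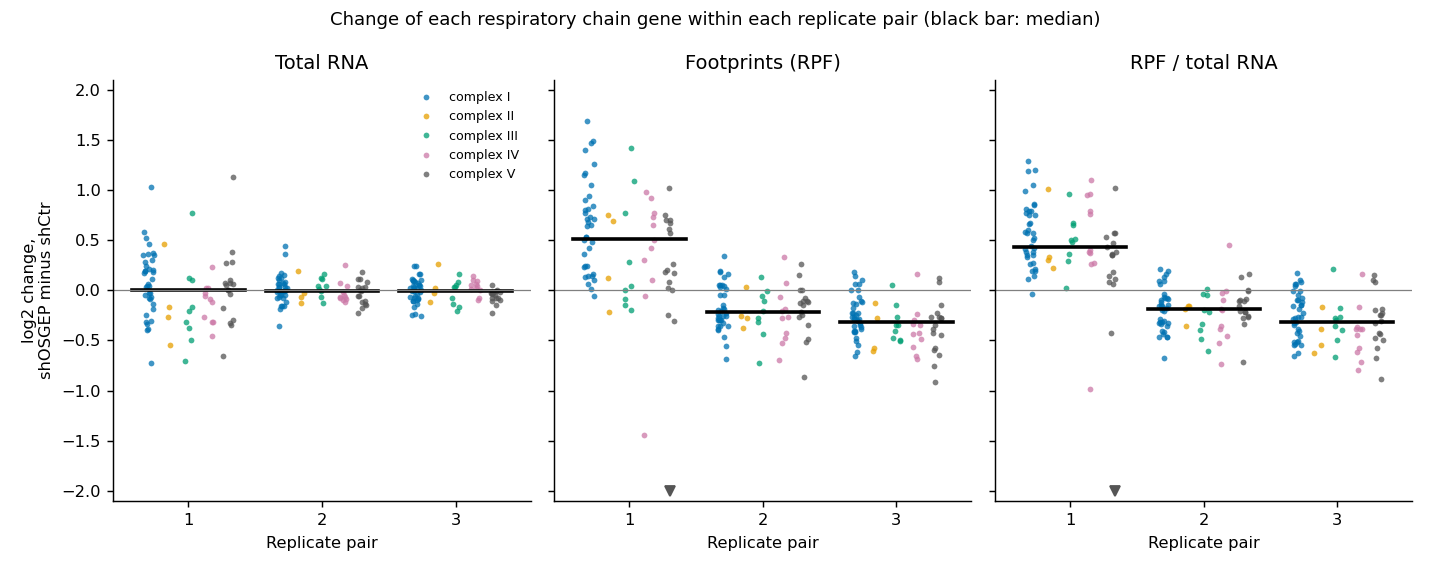
Log2 change (shOSGEP minus shCtr, log2 CPM) of each of the 78 members within replicate pairs 1, 2 and 3, for total RNA, footprints and their ratio; points are genes, colours mark complexes and black bars are medians. Footprint medians are 0.52, −0.21 and −0.32, and the triangle at the lower edge of pair 1 is 1 gene beyond the axis limit of 2, Atp5g2.

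The libraries themselves were then compared, apart from the genotype. Each member's footprint level was set against its mean over the 6 RPF libraries. The median deviation on the log2 scale was 0.36, 0.19 and −0.56 in shCtr replicates 1, 2 and 3, and 0.78, 0.05 and −0.86 in shOSGEP replicates 1, 2 and 3. In total RNA the same medians stayed between −0.13 and 0.078. Replicate 1 was thus the highest and replicate 3 the lowest over all members in both genotypes. Within the control cells alone, 77 of 78 members had more footprints in replicate 1 than in replicate 3 (50.9% of protein-coding genes), with a median difference of 0.87. In shOSGEP 76 of 78 did (49.6% of protein-coding genes), with a median difference of 1.58. The median SD between shCtr replicates was 0.54 for the members' footprints, against 0.34 for all protein-coding genes, and 0.15 for their total RNA, against 0.19. In shOSGEP the median SD was 0.84 for the members' footprints and 0.52 for all protein-coding genes.

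In counts, the members took 1.16%, 1.051% and 0.664% of protein-coding footprints in shCtr replicates 1, 2 and 3, and 1.48%, 0.975% and 0.566% in shOSGEP. The share of ribosomal RNA in the same libraries was 44.8%, 35.7% and 27.9% in shCtr and 67.7%, 27.7% and 28.3% in shOSGEP. Its part in the members' footprint levels was not tested.

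**Figure D3:**
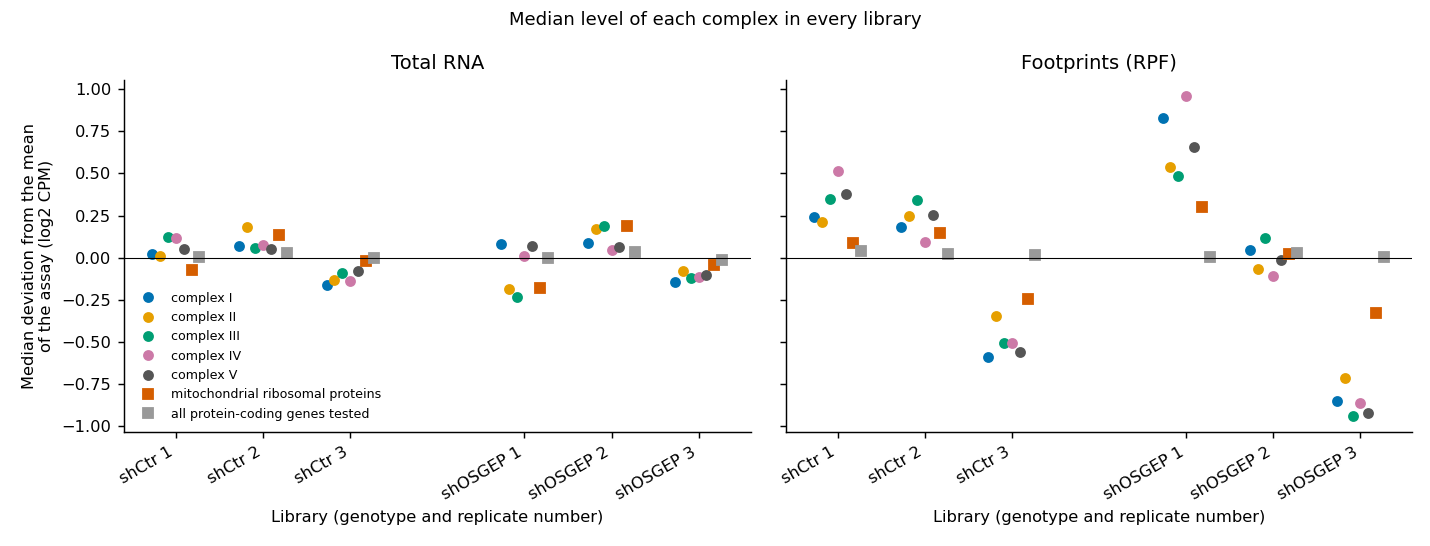
Median deviation of each complex from the mean of its assay (log2 CPM) in each of the 12 libraries, for total RNA on the left and footprints on the right; circles are complexes I to V, squares are mitochondrial ribosomal proteins and all protein-coding genes tested. Footprint medians of the 5 complexes are above 0 in replicate 1 and below 0 in replicate 3 of both genotypes; over all members they are 0.36 and −0.56 in shCtr and 0.78 and −0.86 in shOSGEP.

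Other gene groups were set beside the members. The 78 mitochondrial ribosomal protein genes, also nuclear-encoded, had RPF medians of 0.22, −0.13 and −0.11 in pairs 1, 2 and 3, with the same signs and smaller sizes. Their median SD between shCtr replicates was 0.31, below that of the respiratory chain. The 13 mitochondrially encoded subunits of the same complexes had RPF medians of −3.46, −0.77 and −0.34, and 13 of 13 were lower in pair 1. Their total RNA medians were −1.07, 0.17 and 0.23, with 0 of 13 higher in pair 1, so their RNA was lower there too. Their TE medians were −2.30, −0.82 and −0.54. They took 0.0767% of protein-coding footprints in shOSGEP replicate 1, against 0.656% in shCtr replicate 1. In pair 1 the nuclear and the mitochondrial subunits of the chain thus had footprint changes of opposite sign, whereas in pairs 2 and 3 both medians were below 0.

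Coding length moved with these values. Over all protein-coding genes tested, Spearman's rho between coding length and the RPF change was −0.14, 0.10 and 0.14 in pairs 1, 2 and 3, and over the 78 members it was −0.34, 0.29 and 0.17, as a description across genes that share libraries. Genes of 300 to 600 nt had median RPF changes of 0.24, −0.091 and −0.15 over all 1234 of them and of 0.65, −0.19 and −0.34 over the 37 members. In the control cells the difference between replicates 1 and 3 was 0.31 for all genes of this length and 0.83 for the members. Among genes over 1200 nt it was −0.097 for all 6682 genes and 0.89 for the 9 members. The members' difference was therefore larger than that of genes of like length in each of these classes, and the part of length in it was not tested. For the ANN share, rho with the RPF change was 0.15, 0.051 and −0.047 over the members.

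Single members are described next, in the order of the complexes. In complex I, Ndufa12, an accessory subunit of the NADH-binding arm (chromosome 10, 94198720 to 94221443, plus strand), had the smallest unadjusted p of its complex in RPF. Its footprints measured 29.9, 35.0 and 20.2 CPM in shCtr replicates 1, 2 and 3 and 84.0, 39.3 and 21.7 CPM in shOSGEP, and its total RNA 152, 161 and 167 against 175, 173 and 173 CPM. It was higher in all 3 pairs in both assays, but the RPF groups overlap and most of the difference came from replicate 1. The fitted RPF change was 0.77 (SE 0.51, edgeR unadjusted p 0.175, adjusted p 0.9998), the total RNA pairs differed by 0.20, 0.10 and 0.053, and the TE change was 0.64 (SE 0.55, adjusted p 0.99999).

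Ndufa7, another accessory subunit, and Ndufv3, a flavoprotein partner, were high in shOSGEP replicate 1 in both assays. Ndufa7 measured 62.4, 61.0 and 48.9 CPM in shCtr total RNA and 127, 54.5 and 58.0 CPM in shOSGEP. Its footprints measured 36.2, 16.2 and 10.8 CPM in shCtr and 117, 12.7 and 8.27 CPM in shOSGEP, so pairs 2 and 3 lay below the control. The fitted total RNA change was 0.48 (SE 0.34, edgeR adjusted p 0.975). The fitted RPF change was 1.12 (SE 1.02, adjusted p 0.9998), and without shOSGEP replicate 1 these changes were −0.04 in total RNA and −1.02 in RPF. Ndufv3 measured 80.4, 61.0 and 60.7 CPM against 120, 54.7 and 54.0 CPM in total RNA, and 28.7, 18.9 and 13.1 CPM against 75.8, 19.3 and 10.3 CPM in RPF. Its RPF pairs differed by 1.40, 0.030 and −0.35.

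Ndufa13, which is also studied as a cell death regulator under the name GRIM-19, differed by 0.52, 0.44 and −0.0095 in pairs 1, 2 and 3 of total RNA, with a fitted change of 0.35 (SE 0.22, edgeR adjusted p 0.975). Ndufb2 differed by 1.47, −0.39 and 0.066 in RPF (fitted 0.49, SE 0.44, adjusted p 0.9998) and by 1.19, −0.33 and 0.10 in TE (fitted 0.41, SE 0.49). Ndufs5 differed by 0.84, 0.18 and 0.0061 in RPF (fitted 0.45, SE 0.41, adjusted p 0.9998). Ndufa4 differed by 1.20, −0.36 and −0.043 in TE (fitted 0.33, SE 0.41). In each of these the pair 1 value was the highest, and none passed the test. Among the core subunits, Ndufs1 and Ndufv1 followed the complex in RPF, with 0.42, −0.23 and −0.12 and with 0.48, −0.26 and −0.29. Ndufs7 differed by 0.24, −0.14 and −0.48.

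Ndufa4l2 was one of the few members with low counts that reached the total RNA fit. It had 29, 18 and 18 counts in shCtr and 82, 23 and 54 in shOSGEP. Scaled to library size, shOSGEP stood at 258% of shCtr in replicate 1 (95% exact interval 167% to 408%), 91.6% in replicate 2 (47.3% to 180%) and 245% in replicate 3 (142% to 444%), where the intervals cover counting error only. The fitted change was 1.052 (SE 0.59, edgeR adjusted p 0.975). Its footprints had 0 to 7 counts a library and were not tested.

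In complex II, Sdhd was the member with the smallest unadjusted p in RPF. It measured 36.1, 28.0 and 22.8 CPM in shCtr and 31.0, 21.5 and 15.3 CPM in shOSGEP, so it was lower in 3 of 3 pairs, with log2 differences of −0.22, −0.38 and −0.58, while the groups overlap. With the replicate block the RPF change of Sdhd was −0.39 (edgeR unadjusted p 0.0793, adjusted p 0.817). In total RNA Sdhd was at 127, 144 and 119 CPM in shCtr and 86.7, 142 and 117 CPM in shOSGEP, with log2 differences of −0.55, −0.024 and −0.027. Sdha, Sdhb and Sdhc differed by 0.13, 0.75 and 0.69 in RPF in pair 1, by 0.035, −0.25 and −0.28 in pair 2 and by −0.13, −0.28 and −0.61 in pair 3.

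In complex III, Uqcrq, a small subunit near the ubiquinone site, resembled Ndufa7. It measured 151, 126 and 104 CPM in shCtr total RNA and 258, 128 and 110 CPM in shOSGEP, and 65.5, 44.9 and 24.3 CPM against 176, 36.0 and 18.3 CPM in RPF. Uqcrh, the hinge subunit printed above, had similar footprints throughout, at 60.1, 54.7 and 46.0 CPM in shCtr and 52.4, 54.4 and 47.7 CPM in shOSGEP, although its total RNA pair 1 difference was −0.71. The core subunits differed in RPF by −0.085, −0.10 and −0.27 for Uqcrc1, by 0.0030, −0.27 and −0.47 for Uqcrfs1, and by −0.15, 0.13 and −0.15 for Cyc1. Uqcr10 and Uqcr11, the subunits with the highest total RNA levels, differed by 1.09, −0.73 and −0.35 and by 0.040, −0.44 and −0.50.

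In complex IV, Cox6a2 (chromosome 7, 128205435 to 128206387, minus strand) was the 1 member at an unadjusted p under 0.05 in total RNA. It had 3, 10 and 0 total RNA counts in shCtr and 287, 18 and 30 in shOSGEP, and 0, 0 and 0 against 9, 2 and 6 RPF counts. Its highest level, 4.45 CPM in shOSGEP replicate 1, remained far below that of Cox6a1 in the same library, 211 CPM. In replicate 2 shOSGEP was at 129% of shCtr, with a 95% exact interval of 56.5% to 313%, while in replicate 1 the interval, 2952% to 42505%, lay far above it. The fitted total RNA change was 4.43 (SE 1.48, edgeR unadjusted p 0.0206, adjusted p 0.975). Without shOSGEP replicate 1, the library with 287 counts, it was 2.19, and without both replicate 1 libraries 1.95. With the replicate block it was 3.79 (unadjusted p 0.0547).

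Cox7a2l (chromosome 17, 83501918 to 83517330, minus strand) was lower in pair 1, where its complex was higher. Its footprints measured 30.3, 14.5 and 17.6 CPM in shCtr and 11.1, 18.4 and 12.5 CPM in shOSGEP, and in replicate 1 shOSGEP was at 36.5% of shCtr (95% exact interval 29.98% to 44.2%). Pair 2 had the opposite sign. The fitted RPF change was −0.57 (SE 0.36, edgeR unadjusted p 0.157, adjusted p 0.9998), and the total RNA change was −0.24 (SE 0.17, adjusted p 0.975) with 3 of 3 pairs lower, at −0.46, −0.12 and −0.10. The TE change was −0.34 (SE 0.41, adjusted p 0.99999). Cox4i1 differed by 0.30, 0.070 and −0.34 in RPF, Cox5a by 0.65, −0.42 and −0.69, and Cox5b by 0.73, −0.27 and −0.24. Cox6a1, Cox6b1, Cox7a2 and Cox8a, the ubiquitous isoforms, differed by 0.50, 0.92, 0.98 and 0.42 in pair 1 and by −0.44, −0.43, −0.66 and −0.57 in pair 3.

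In complex V the c-ring subunit is encoded by the paralogues Atp5g1, Atp5g2 and Atp5g3, which differ in the import signal and share the mature protein. The first 60 coding bases are shown because the paralogues can be told apart there, with ANN codons in capitals (GRCm38, chromosome 11, 96068852 to 96075670; chromosome 15, 102662864 to 102672352; and chromosome 2, 73908447 to 73911326, all on the minus strand).
Atp5g1: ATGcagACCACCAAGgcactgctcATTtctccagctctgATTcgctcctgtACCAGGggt
Atp5g2: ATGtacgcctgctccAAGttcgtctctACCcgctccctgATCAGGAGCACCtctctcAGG
Atp5g3: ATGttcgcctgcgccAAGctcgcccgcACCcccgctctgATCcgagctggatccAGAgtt
Over these 60 bases, compared position by position, 38.3% were identical between Atp5g1 and Atp5g2, 50% between Atp5g1 and Atp5g3 and 58.3% between Atp5g2 and Atp5g3. Over the last 228 bases of the coding sequence the identities were 85.1%, 79.8% and 78.5%. The longest run shared by any pair was 21 bases.

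Atp5g2 had the largest footprint difference of the 78 members tested, −6.32 on the log2 scale in pair 1. Its footprints numbered 452, 331 and 1171 counts in shCtr and 3, 780 and 752 in shOSGEP. In replicate 1 shOSGEP was at 0.973% of shCtr (95% exact interval 0.200% to 2.86%, counting error only), against 120% in replicate 2 and 83.1% in replicate 3. Total RNA of Atp5g2 in the same replicate was at 130% of shCtr (127% to 133%), on 11131 and 15912 counts. The low count was thus in 1 RPF library and not in the total RNA of the same replicate, and the other 2 shOSGEP RPF libraries were near the control. In that library Atp5g1 had 752 and Atp5g3 2037 footprint counts, against 691 and 2820 in shCtr replicate 1. How reads that match more than 1 of these genes were assigned is not stated, and its part in this value was not tested.

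The large catalytic subunits of complex V had lower footprints in shOSGEP in all 3 pairs, though neither passed the test. Atp5a1, the alpha subunit, measured 280, 360 and 145 CPM in shCtr and 226, 309 and 120 CPM in shOSGEP. Atp5b measured 567, 493 and 274 CPM in shCtr and 477, 446 and 204 CPM in shOSGEP. Both were lower in 3 of 3 pairs, with log2 differences of −0.31, −0.22 and −0.28 and of −0.25, −0.14 and −0.42, but the groups overlap, and replicate 3 was low in both genotypes. Their total RNA differed by −0.66, −0.12 and 0.056 and by −0.33, −0.059 and 0.0038. Atp5c1, the gamma subunit, differed by 0.00022, −0.25 and −0.26 in RPF. Atp5k, the e subunit, differed by 1.02, −0.11 and 0.081 in TE (fitted 0.41, SE 0.42, adjusted p 0.99999).

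**Figure D4:**
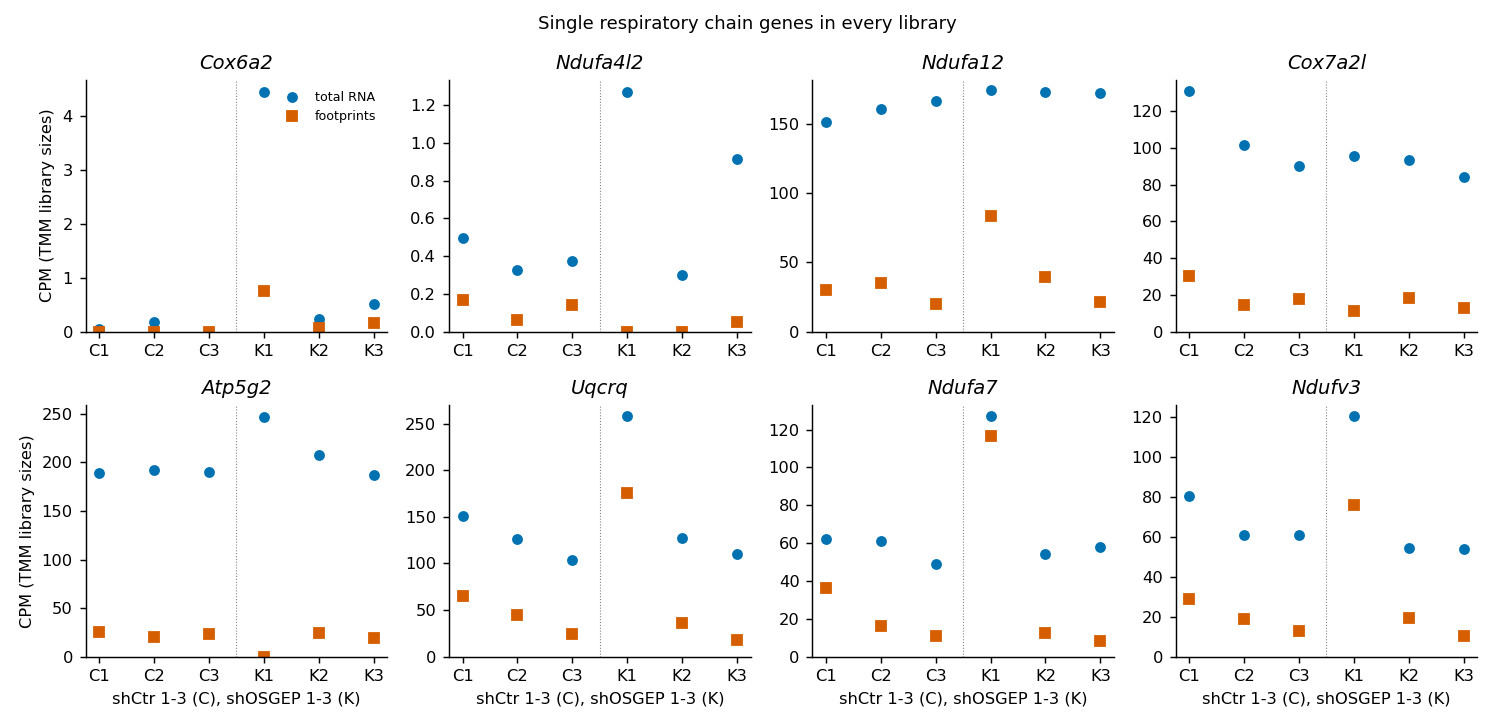
CPM of 8 members in the 12 libraries, with total RNA as circles and footprints as squares, shCtr replicates 1 to 3 on the left (C1 to C3) and shOSGEP replicates 1 to 3 on the right (K1 to K3) of each panel; every vertical axis starts at 0. Total RNA of Cox6a2, Uqcrq, Ndufa7 and Ndufv3 is highest in shOSGEP replicate 1, where Atp5g2 footprints are at 0.248 CPM.

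Genes that serve the same pathway were counted from lists of their own. Of 49 assembly factors, 48 were tested in total RNA (34 higher, 14 lower, median 0.051), where 53.1% of all genes were higher. In RPF 49 were tested (32 higher, 17 lower, median 0.092), where 54.9% of all genes were higher. None of these factors had an unadjusted p under 0.05 in either assay or for TE. The smallest belonged to Bcs1l, which inserts the Rieske protein, in total RNA (log2 change 0.37, SE 0.21), to Cox14 in RPF (0.69, SE 0.52) and to Coa5 for TE (−0.47, SE 0.29). The 15 genes of ubiquinone synthesis and electron carriers had medians of 0.085 in total RNA and 0.098 in RPF, with none at an unadjusted p under 0.05. Coq8a, a kinase-like protein of ubiquinone synthesis, had the smallest p in both, with −0.70 (SE 0.31) and −0.63 (SE 0.44), and Coq2 for TE, with −0.25 (SE 0.27). Without both replicate 1 libraries the Coq8a changes were −0.19 and −0.18, and without shCtr replicate 1 they were −0.31 and −0.053. Of 14 regulators of respiratory gene transcription, 11 were lower in total RNA (median −0.052) and 10 in RPF (median −0.099), again with none at that p. Their medians in pairs 1, 2 and 3 were −0.25, 0.016 and −0.0019 in total RNA. In RPF these were −0.45, −0.036 and −0.063, so pair 1 had the lowest median in both assays. Tfb1m, a mitochondrial ribosomal RNA methyltransferase, had the smallest p, with 0.48 (SE 0.24) and 1.04 (SE 0.54), which were 0.19 and 0.46 without both replicate 1 libraries, and Gabpb1, a subunit of a transcription factor for respiratory genes, had it for TE, with −0.38 (SE 0.27).

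**Figure D5:**
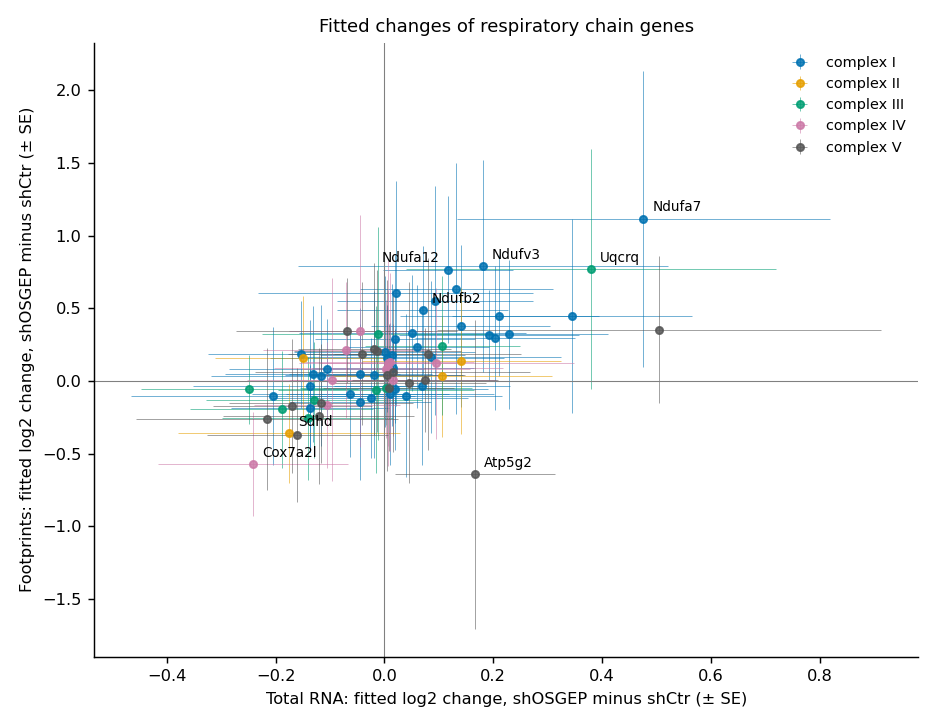
Fitted log2 changes (shOSGEP minus shCtr, edgeR) of the 78 members tested in both assays, total RNA on the horizontal and footprints on the vertical axis; bars are SE and colours mark complexes. No member passed an adjusted p of 0.05, with Ndufa7 at 1.12 and Atp5g2 at −0.64 as the ends of the footprint range.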

How the data were processed

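Total RNA and ribosome footprints were sequenced from 6 cell samples (12 libraries). The authors deposited raw read counts per gene in a table for each assay. The submitters' notes name FastQC, Trim Galore, cutadapt and STAR and the builds GRCm38 and GRCm39. The study's methods describe STAR and Salmon on GRCm38 for poly(A) RNA libraries that were deposited separately. For the footprints they describe an alignment of length-selected reads to coding transcripts with only perfect matches kept. A second footprint alignment, by STAR to the GRCm38 genome, served the study's measure of ribosome stalling. The deposited footprint table also holds ribosomal RNA genes, so it was not limited to the matches to coding transcripts. For the tables used here the counter, annotation, strand setting and treatment of multiply mapped reads are not given in the sources used here, nor is the build behind each. Gene IDs were matched to GENCODE M21 (GRCm38), which gave 55227 IDs a symbol and left 260 without one.

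Counts were filtered with filterByExpr, scaled by TMM and tested with edgeR's quasi-likelihood test (edgeR 4.0.16, limma 3.58.1, R 4.3.3), shOSGEP against shCtr within each assay and as an interaction over both for TE, with Benjamini-Hochberg adjustment at 0.05. No block was used, since the study's methods name none; the study selected genes on unadjusted p, which was an alternative. DESeq2 1.42.0 was an alternative. Pair differences are of log2 CPM with a prior count of 2. Levels use 1 transcript per gene. Depth is given in the report, and exact intervals cover counting error only. The code was tested on simulated data.

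Libraries of the 2 genotypes with the same number shared deviations from the mean of their group, in total RNA (r = 0.52, 0.54 and 0.29) and in RPF (0.59, 0.51 and 0.66), so numbers were taken to pair libraries. No pair of replicates agreed within sampling noise. The members and gene lists were chosen with earlier results of these data known. Named were the 5 members with the smallest p per fit and the 2 with the highest total RNA level per complex. Subunits listed as core, with Cox4i1, Cox5a and Cox5b beside them for complex IV, and tissue isoforms were also named. From other lists, the gene with the smallest p was named. The values of 1 member are not reported here.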

Additional observations from a re-analysis of the deposited data

How the results depend on the processing

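No member passed in any of the edgeR or DESeq2 alternatives at an adjusted p of 0.05. With the study's thresholds (unadjusted p under 0.05 and a log2 change over 0.5) 1 member, Cox6a2, passed in total RNA, and 223, 139 and 17 genes passed in total RNA, RPF and for TE. Over all genes DESeq2 called 8 in total RNA and 1 in RPF, the replicate block called 1 in total RNA, and leaving out the filter gave 229 in RPF. The total RNA median of the members was −0.015 without the filter, and its pair medians were −0.0053 in pair 1 over protein-coding genes only, −0.018 in pair 2 with RLE size factors and 0.0066 in pair 3 with 10 counts in every library. The cause was not tested. The replicate block, used because same-numbered libraries deviated together, changed no member's call and gave member medians of −0.0011, −0.028 and −0.040 for total RNA, RPF and TE.

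Leaving out 1 library or pair in turn gave member medians of −0.085 to 0.052 in total RNA, −0.40 to 0.40 in RPF and −0.38 to 0.34 for TE, the lowest RPF and TE values without shOSGEP replicate 1 and the highest without shOSGEP replicate 3. In total RNA complex I ranged from −0.067 to 0.10, complex II from −0.16 to 0.041, complex IV from −0.12 to 0.016, complex V from −0.078 to 0.034 and Ndufa7 from −0.039 to 0.73. In RPF complex I ranged from −0.34 to 0.48, complex II from −0.45 to 0.38, complex III from −0.32 to 0.14, complex IV from −0.54 to 0.46, complex V from −0.48 to 0.38, Ndufb2 from −0.21 to 0.92, Ndufa7 from −1.02 to 1.75, Ndufs5 from −0.11 to 0.66 and Cox14 from −0.15 to 1.01. For TE complex I ranged from −0.33 to 0.38, complex IV from −0.51 to 0.35, Ndufa12 from −0.0088 to 1.00, Atp5k from −0.016 to 0.65, Ndufb2 from −0.15 to 0.79, Cox7a2l from −0.73 to 0.051 and Ndufa4 from −0.22 to 0.68.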
